A study of Mus musculus with 16 samples.

Results

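The genes described here are 8 integrin subunits and 1 integrin-binding protein, each taken by its platform gene symbol in the table of log2 intensities that the authors deposited. Of 10 symbols on the list, 9 had a probe and 15 probes carried them, out of 16593 genes with a probe in all. Itga8 was not analysed here, since none of the 25697 probes carried its symbol. All 9 genes were above the background level of 7.13 on the log2 scale on at least 4 arrays and were among the 9118 genes tested. The genes were chosen by measured values, namely their log2 differences between mice given both agents and control mice, so those differences are given below as a description without a p-value. How many of them pass the threshold is stated only beside the share of all genes, and nothing is read from it. All other comparisons, with the interaction, reuse the combination or control arrays, so the p-values of these genes in them are a description too.

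Left ventricles of male C57BL6 mice, 12 weeks old at assignment, were profiled on 16 Illumina BeadChips, 4 for each of 4 groups. The combination group, set up as a model of non-ischemic heart failure, drank L-NAME, which blocks nitric oxide synthases, for 5 weeks (0.3 mg/ml, beside 1% salt, NaCl). A pump gave the same mice AngII, the pressor peptide angiotensin II, for 4 weeks (0.7 mg/kg/day). The AngII group received AngII alone, the L-NAME group received L-NAME with the salt alone, and the control group neither. The labels do not say whether the AngII and control mice drank salt, so effects of L-NAME and salt cannot be told apart. The labels do not say that each sample came from its own mouse, and p-values therefore measure the spread between these samples, which may be technical. The number of arrays, 4 in a group, limits the precision.

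Integrins are cell surface receptors made of an alpha and a beta subunit, which bind matrix proteins outside the cell and the actin cytoskeleton inside it. In the heart they sit at the costameres of the cardiomyocyte, where they carry and sense mechanical load, and on fibroblasts and vascular cells, which lay down and remodel the matrix. Pairs that contain the alpha V subunit can also free TGF-beta from its latent form. Which ligand a pair binds depends on its subunits: some recognise the RGD motif of fibronectin and vitronectin, others laminins, others collagens.

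Ventricular muscle genes were at high levels on every array, as the tissue label says: 11 of 12 listed markers were tested, and their mean log2 intensity lay between 13.53 and 13.82 in all 16 samples. Array 4 of the combination group stood apart. Its mean correlation with the other arrays of its group was 0.943, against 0.963 to 0.983 for the other 15 arrays. On it the mean of 15 fibroblast markers was 9.78, against 10.79 to 11.12 on the other combination arrays, and the mean of 5 erythroid markers was 12.58, against 10.49 to 11.19. In bulk tissue fewer cells of a type and less RNA per cell cannot be told apart. Where leaving it out moved a printed difference of an integrin gene by over 1.5 times, the value without it follows.

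Promoter sequence was at hand for 7 of the 10 listed genes. Of 2 Itgb6 entries the first is used. The 250 bases before the start of transcription of Itgb6, Itga5 and Itga11 are shown, since these genes differed most between the combination and control groups. The sequences are from RefSeq on GRCm38.p6, at chr2:60722604-60722853 (minus strand) for Itgb6, chr15:103366792-103367041 (minus strand) for Itga5 and chr9:62677605-62677854 (plus strand) for Itga11, and run 5′ to 3′ toward the gene. Capitals mark matches on either strand to the SMAD box (CAGAC) or the GC box (GGGCGG).
Itgb6: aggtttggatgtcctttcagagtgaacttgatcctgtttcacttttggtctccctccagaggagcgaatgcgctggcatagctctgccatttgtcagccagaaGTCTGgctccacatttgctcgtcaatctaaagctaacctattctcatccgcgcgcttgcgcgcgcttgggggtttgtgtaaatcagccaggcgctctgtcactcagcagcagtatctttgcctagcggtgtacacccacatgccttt
Itga5: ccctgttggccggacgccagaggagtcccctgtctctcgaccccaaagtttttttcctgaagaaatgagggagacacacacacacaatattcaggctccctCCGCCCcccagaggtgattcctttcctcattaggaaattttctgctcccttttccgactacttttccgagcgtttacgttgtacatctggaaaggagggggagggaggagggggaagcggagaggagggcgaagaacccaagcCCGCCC
Itga11: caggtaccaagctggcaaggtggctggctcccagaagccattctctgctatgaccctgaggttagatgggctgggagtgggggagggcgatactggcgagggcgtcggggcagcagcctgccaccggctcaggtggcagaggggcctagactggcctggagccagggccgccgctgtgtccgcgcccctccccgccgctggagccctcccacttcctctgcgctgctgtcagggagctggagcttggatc

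Itgb6 held 1 SMAD box, 147 bases before the start, and Itga5 held 2 GC boxes, 149 and 6 bases before it. Itga11 held neither, and it was the richest in G and C at 68.4%, beside 55.6% for Itga5 and 52% for Itgb6. The AP-1 motif (TGANTCA), the TATA box (TATAAA) and the CCAAT box (CCAAT) were searched as well on both strands and had no match in the 3 windows, and no matches overlapped. The other Itgb6 entry, not shown, held no match to any motif searched, so the SMAD box depends on the entry used. Of 32851 mouse promoter windows of the same length, 42.2% held a SMAD box, 32.7% a GC box, 6.75% the AP-1 motif, 12.4% a TATA box and 33.8% a CCAAT box. A match is a description of the letters and not a bound site.

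The beta subunit Itgb6, which pairs with alpha V and is known best from epithelia, was the member with the widest differences between groups. Its brightest probe (ILMN_2805372) read 7.53, 8.36, 7.51 and 6.27 log2 units on the combination arrays, 8.42, 9.15, 7.17 and 8.01 on the AngII arrays, 9.26, 8.86, 8.46 and 8.91 on the L-NAME arrays and 8.74, 9.20, 9.21 and 10.30 on the control arrays. All 4 combination arrays lay below every L-NAME and every control array, while the combination and AngII arrays overlapped. The group means ran from 7.42 ± 0.86 in the combination group through 8.19 ± 0.83 with AngII and 8.87 ± 0.33 with L-NAME to 9.36 ± 0.67 in controls (SD, n = 4 each). Averaged over 3 genes of atrial muscle (Sln, Myl7 and Myl4), the level in the combination group was 9.17, 8.12, 10.55 and 7.81. It was 9.78 for control array 4, which had the highest Itgb6 reading, and 6.94 to 7.73 for the other 11 arrays.

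**Figure D1:**
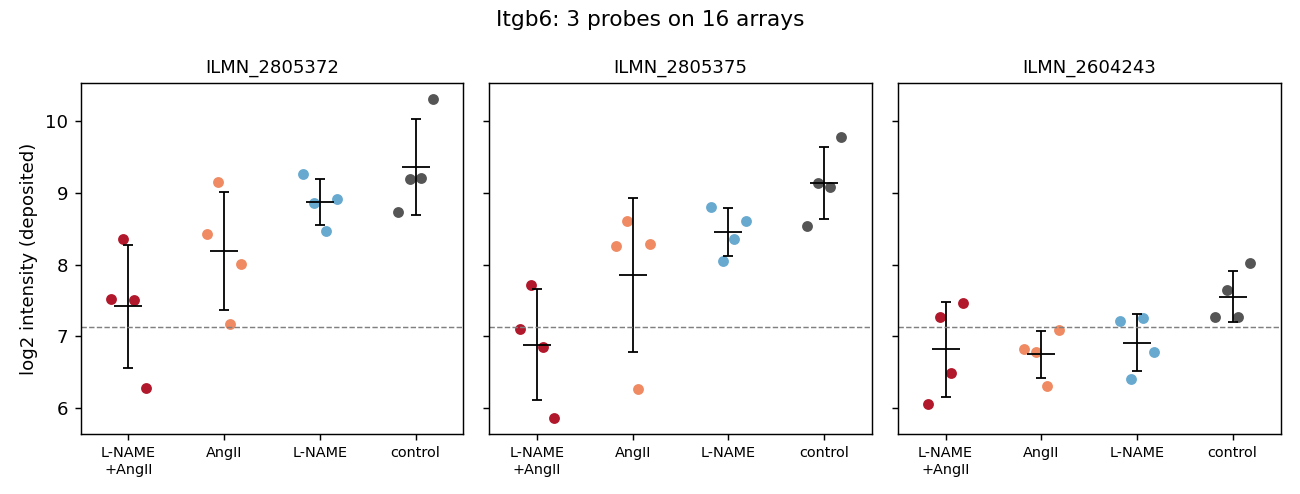
Log2 intensity (vertical axis) of the 3 Itgb6 probes in the 4 groups, with arrays 1 to 4 of a group from left to right, the mean and SD in black, and the background level of 7.13 as a dashed line. On the first and second panels the combination arrays lie below all control arrays; on the last the combination arrays overlap the controls, the AngII and L-NAME arrays lie below them, and most values are near background.

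The combination group differed from control by -1.94 ± 0.45 log2 units (SE), a level 3.85-fold lower, with all 4 combination arrays below the controls. A second probe (ILMN_2805375) had -2.25 ± 0.46, from readings of 7.11, 7.72, 6.84 and 5.86 on the combination arrays and 8.54, 9.14, 9.08 and 9.78 on the control arrays, and only 1 combination array was above background there. The last probe (ILMN_2604243) was dim, with means of 6.82 ± 0.66 in the combination group and 7.55 ± 0.35 in controls (SD, n = 4 each), and these groups overlapped. Without combination array 4 the difference was -1.56 ± 0.42 and without control array 4 it was -1.63 ± 0.45 (SE). With the mean of the 3 atrial genes as a covariate it was -2.22.

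With AngII alone Itgb6 differed from control by -1.17 ± 0.45 log2 units (SE, limma adjusted p = 0.241), and with L-NAME alone by -0.49 ± 0.45 (adjusted p = 0.767). The combination differed from L-NAME by -1.46 ± 0.45 (adjusted p = 0.113), with no overlap between the groups, and from AngII by -0.77 ± 0.45 (adjusted p = 0.428). The difference from AngII was -0.39 ± 0.42 without combination array 4 (adjusted p = 0.725). None of these 4 differences passed the threshold. All 4 reuse combination or control arrays, by which Itgb6 was chosen, so their p-values are a description. The AngII and L-NAME groups, neighbours in the order of the group means, were not tested against each other. On that dim probe (ILMN_2604243) all 4 AngII arrays were below background, at 6.75 against 7.55 in controls, a level at least 1.34-fold lower. The interaction term, which asks whether the combined difference departs from the sum of the single ones, was -0.28 ± 0.63 (adjusted p = 0.877), or 0.10 ± 0.57 without combination array 4.

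Itgb6 is known best from epithelia, but most epithelial and lung markers were not above background in these samples. Of 13 listed, 11 had a probe and 2 were tested, Cdh1 and Ager, while Krt8, Krt18, Krt19, Sftpb, Sftpc and Scgb1a1 did not pass the filter. The mean of those 2 genes was 7.40 to 7.73 on the combination arrays, 6.94 to 8.14 with AngII, 7.17 to 7.86 with L-NAME and 7.01 to 7.79 in controls, so the groups overlapped.

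Itgb1, the beta subunit shared by most integrins of cardiomyocytes and fibroblasts, had a mean of 9.52 ± 0.54 in the combination group, 9.28 ± 0.37 with AngII, 9.48 ± 0.25 with L-NAME and 9.15 ± 0.33 in controls (SD, n = 4 each). The combination readings were 9.67, 10.08, 9.54 and 8.79, against 9.03, 9.50, 8.74 and 9.32 in controls, and the groups overlapped. The combined difference of 0.37 became 0.62 without combination array 4. The other Itgb1 probe did not follow the first across arrays: combination array 4 was the lowest of its group on the first probe and the highest, at 9.46, on the second.

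Itgb5, another partner of alpha V, was 11.85 ± 0.32, 12.11 ± 0.17, 11.99 ± 0.18 and 11.78 ± 0.15 in the combination, AngII, L-NAME and control groups (SD, n = 4 each). Its difference from control was 0.07 ± 0.15 for the combination (0.19 ± 0.14 without combination array 4), 0.32 ± 0.15 for AngII (SE, limma adjusted p = 0.353) and 0.21 ± 0.15 for L-NAME (adjusted p = 0.685). The interaction was -0.46 ± 0.22 (adjusted p = 0.302), with an unadjusted p of 0.0491.

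Among the RGD-binding alpha subunits, Itga5, the fibronectin receptor subunit that pairs with Itgb1, was higher in the combination group. It read 9.21, 8.93, 8.93 and 8.65 on the combination arrays, 8.64, 8.92, 8.48 and 8.03 with AngII, 8.51, 9.05, 8.56 and 8.45 with L-NAME, and 7.89, 7.96, 8.19 and 8.48 in controls. Every combination array was above every control array, while the single-treatment arrays reached into both groups. The combination differed from control by 0.80 ± 0.20 log2 units (SE), a 1.74-fold higher level, and by 0.89 ± 0.21 without combination array 4.

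Alone, L-NAME gave an Itga5 difference of 0.51 ± 0.20 (SE, limma adjusted p = 0.332) and AngII one of 0.39 ± 0.20 (adjusted p = 0.387), neither past the threshold. The combination was 0.41 ± 0.20 above AngII (adjusted p = 0.333) and 0.29 ± 0.20 above L-NAME (adjusted p = 0.513). The interaction was -0.10 ± 0.28 (adjusted p = 0.903), or -0.01 ± 0.28 without combination array 4. As for Itgb6, these p-values are a description.

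The second Itga5 probe (ILMN_2670172) was below background on all 4 control arrays, at 6.72 ± 0.30. It was at 7.27 ± 0.16 in the combination group, at least 1.11-fold higher, and at 7.45 ± 0.22 with AngII, at least 1.25-fold higher (SD, n = 4 each). Tested by itself, its AngII difference missed the threshold (limma adjusted p = 0.075). The 2 probes differ in the order of the treated groups, with the combination highest on the first and AngII highest on the second.

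Itgav, the alpha V subunit that pairs with Itgb5 and Itgb6, read 8.49, 8.40, 8.59 and 8.79 on the combination arrays and 8.02, 8.29, 7.91 and 8.18 on the control arrays. The groups did not overlap, at a difference of 0.47 ± 0.17 log2 units (SE), or 0.40 ± 0.18 without combination array 4. Its mean lay on the other side of control from its partner Itgb6. L-NAME differed from control by 0.37 ± 0.17 (limma adjusted p = 0.435, unadjusted p = 0.0489) and AngII by 0.13 ± 0.17 (adjusted p = 0.795). The L-NAME readings ran from 8.23 to 8.80 and the AngII readings from 7.82 to 8.62.

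**Figure D2:**
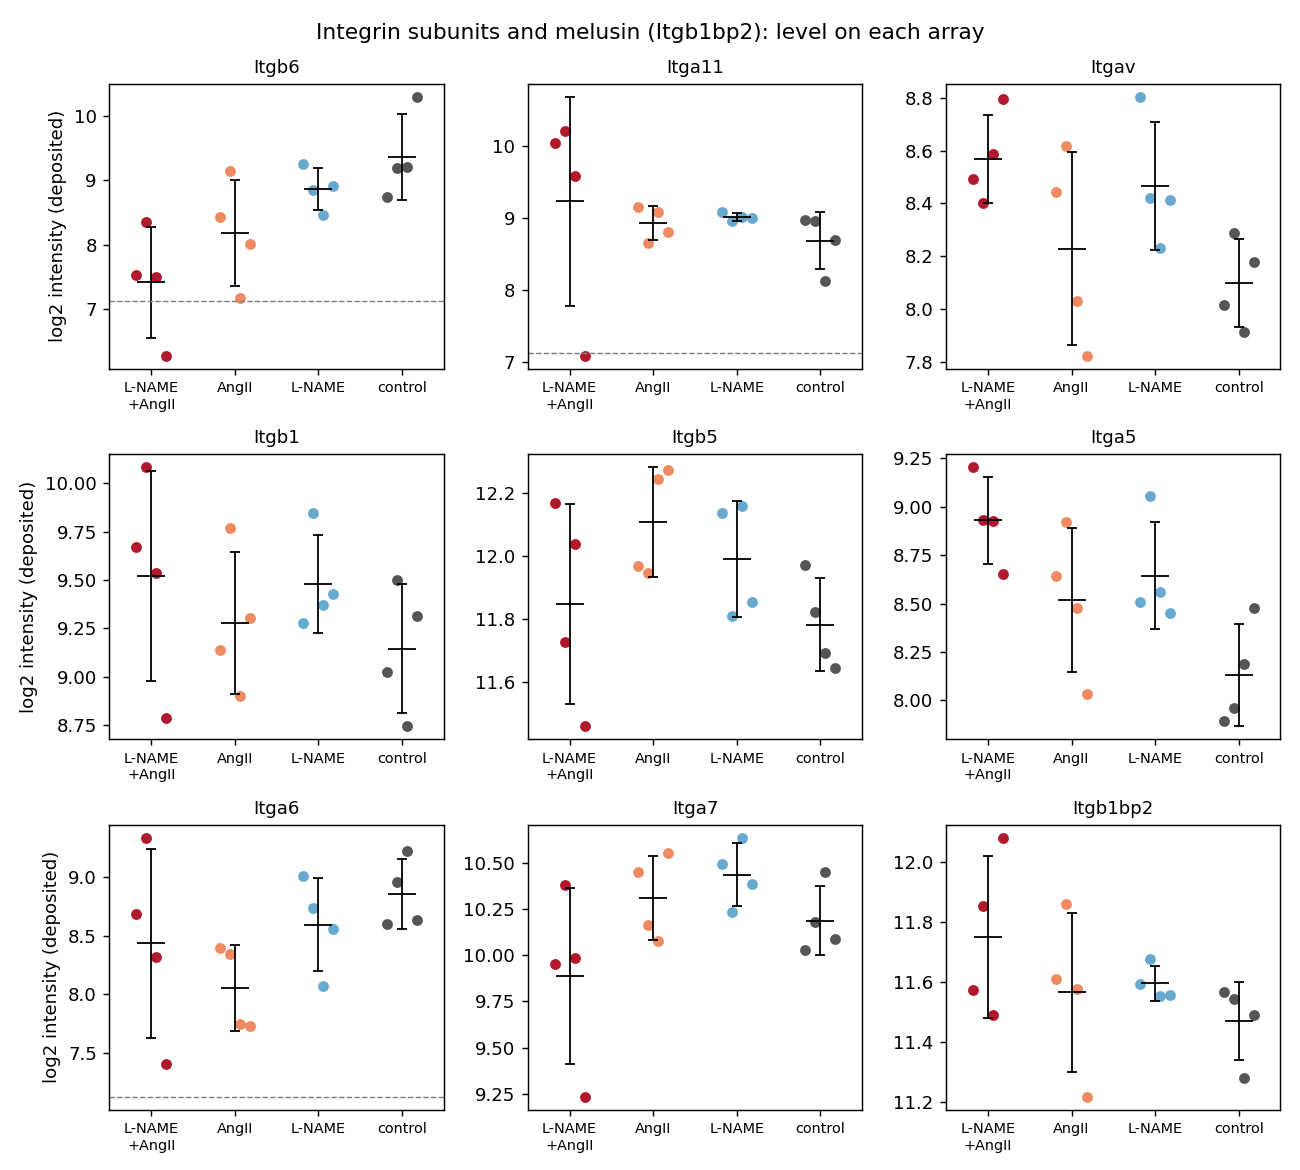
Log2 intensity (vertical axes, each with its own range) of the brightest probe of each of the 9 genes, with arrays 1 to 4 of a group from left to right, the mean and SD in black and, where values come near it, the background level of 7.13 as a dashed line. Combination array 4 is the lowest of its group for Itgb6, Itga11, Itgb1, Itgb5, Itga5, Itga6 and Itga7 and the highest for Itgav and Itgb1bp2.

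Itga11, the alpha subunit of a collagen receptor that fibroblasts carry, was the highest of all samples on 3 combination arrays and the lowest of all on the fourth. Its brightest probe (ILMN_2701778) read 10.05, 10.21, 9.59 and 7.08 on the combination arrays, 9.16, 8.66, 9.09 and 8.81 with AngII, between 8.96 and 9.09 on all 4 L-NAME arrays, and 8.98, 8.96, 8.12 and 8.70 in controls. The combination mean was 9.24 ± 1.46 against 8.69 ± 0.40 in controls (SD, n = 4 each), and the difference of 0.55 ± 0.49 log2 units (SE) was hardly above its error.

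Without combination array 4 the Itga11 difference from control was 1.26 ± 0.20 (SE). In the same 15 arrays the combination was higher than AngII by 1.02 ± 0.20 (limma adjusted p = 0.0248) and higher than L-NAME by 0.93 ± 0.20 (adjusted p = 0.025). With all 16 arrays these were 0.30 ± 0.49 (adjusted p = 0.816) and 0.22 ± 0.49 (adjusted p = 0.879). Over all alternatives the adjusted p ran from 0.0248 to 0.989 against AngII and from 0.025 to 0.971 against L-NAME. Both comparisons use the combination arrays on whose values the list was drawn up, and the array left out had the lowest Itga11 reading of all. Their p-values are thus a description, and nothing is read from them. Probe ILMN_2844032 read 7.76, 7.83, 7.94 and 7.09 in the combination group, against 7.08, 6.87, 7.68 and 7.15 in controls, close to background, and probe ILMN_2603054 was below background on all 16 arrays.

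**Figure D3:**
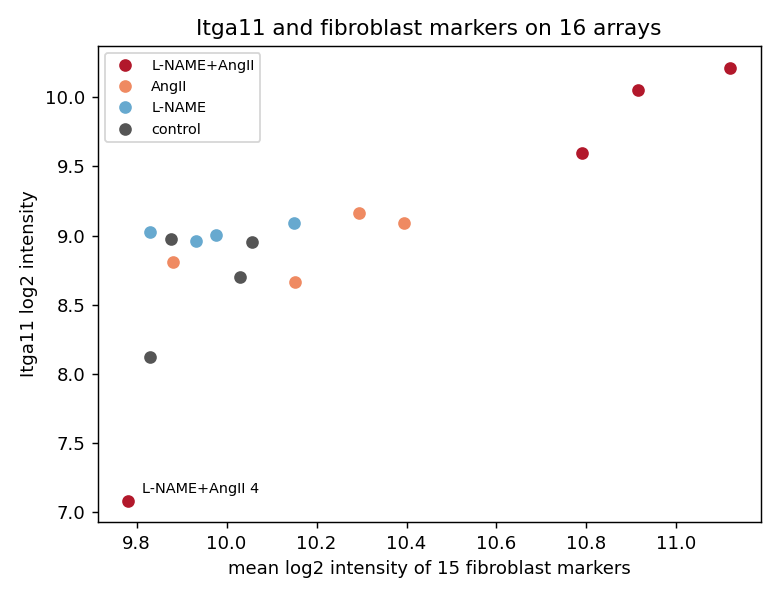
Itga11 log2 intensity (vertical axis) against the mean log2 intensity of 15 fibroblast markers (horizontal axis), 1 point for each of the 16 arrays. The points of combination arrays 1 to 3 lie at the upper right and combination array 4 at the lower left.

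On the combination arrays the fibroblast markers moved with Itga11. Of 16 listed, 15 were tested, and their mean was 10.91, 11.12, 10.79 and 9.78 on the combination arrays, 9.88 to 10.39 with AngII, 9.83 to 10.15 with L-NAME and 9.83 to 10.06 in controls. Combination array 4 was thus the lowest of all samples for the marker mean as for Itga11. Its marker mean was close to the lowest control, at 9.83, while its Itga11 reading of 7.08 lay far below the lowest control, at 8.12. In the other groups markers and Itga11 did not always go together. AngII array 2 had a marker mean of 10.15 with Itga11 at 8.66, and L-NAME array 3 had 9.83 with 9.02. Their part in the result was not tested.

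Of the laminin-binding alpha subunits, Itga6 had its lowest mean with AngII alone. It read 8.39, 8.35, 7.74 and 7.73 with AngII and 8.60, 8.96, 9.23 and 8.64 in controls, without overlap, at a difference of -0.80 ± 0.33 (SE, limma adjusted p = 0.271). The combination arrays spread from 7.41 to 9.34, and the difference from control was -0.42 ± 0.33, or -0.08 ± 0.27 without combination array 4. The L-NAME arrays ran from 8.07 to 9.01 (difference from control -0.26 ± 0.33, adjusted p = 0.85).

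Itga7, the main laminin-binding alpha subunit of mature muscle, read 9.95, 10.38, 9.98 and 9.23 on the combination arrays and 10.03, 10.18, 10.45 and 10.09 in controls, with overlap. It lay 0.55 ± 0.20 log2 units lower in the combination than in the L-NAME group (SE, limma adjusted p = 0.173) and 0.42 ± 0.20 lower than in the AngII group (adjusted p = 0.32), and neither passed. These differences were -0.33 ± 0.16 (adjusted p = 0.364) and -0.21 ± 0.16 (adjusted p = 0.592) without combination array 4. Its interaction was -0.67 ± 0.28 (adjusted p = 0.252), with an unadjusted p of 0.0292. As for Itgb6, these p-values are a description. Against control the combination differed by -0.30 ± 0.20, or -0.08 ± 0.16 without combination array 4.

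Itgb1bp2 encodes melusin, a muscle protein that binds the tail of the beta 1 subunit and is known in mice to protect the heart under pressure load. Its level was 11.75 ± 0.27 in the combination group, 11.57 ± 0.27 with AngII, 11.59 ± 0.06 with L-NAME and 11.47 ± 0.13 in controls (SD, n = 4 each). The combination differed from control by 0.28 ± 0.15 log2 units (SE), or by 0.17 ± 0.14 without combination array 4, whose reading of 12.08 was the highest of all samples. Neither single treatment passed (AngII 0.10, limma adjusted p = 0.83; L-NAME 0.12, adjusted p = 0.832).

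**Figure D4:**
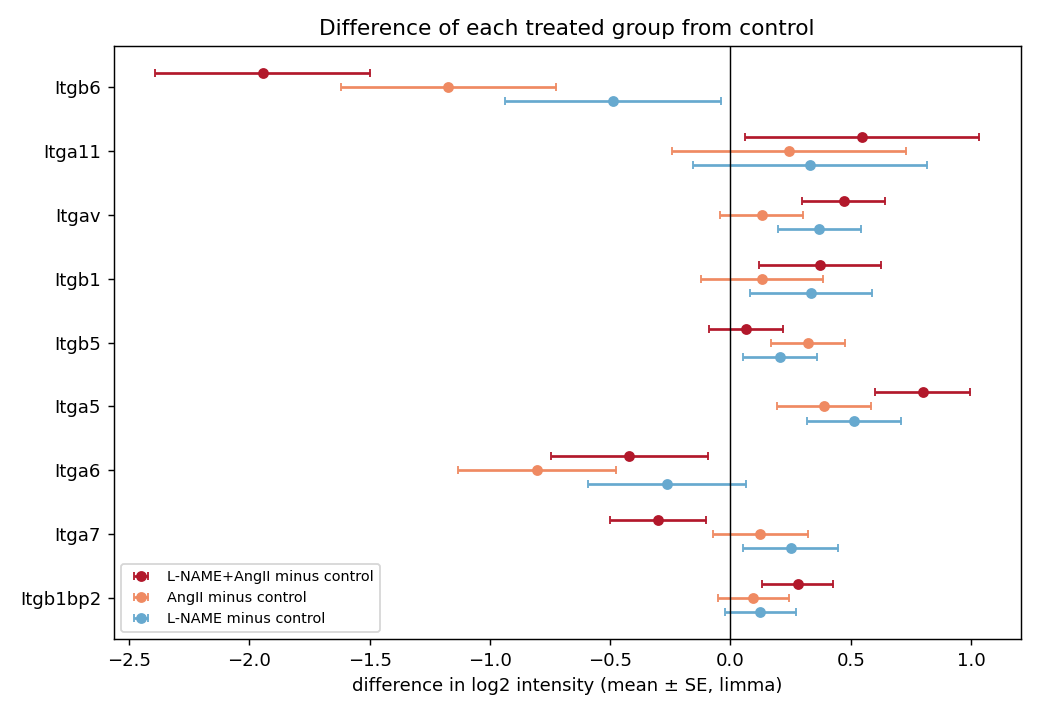
Difference in log2 intensity (horizontal axis, with the SE of the limma fit) of the combination, AngII and L-NAME groups from control for the 9 genes. Itgb6 lies furthest to the left in all 3 groups, and Itga5 lies furthest to the right in the combination group at 0.80.

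Counted over the 9 genes, Itga5 (higher) and Itgb6 (lower) were past an adjusted p of 0.05 between the combination and control groups, where 5.79% of all tested genes were (528 of 9118), 2.95% higher and 2.84% lower. Since this contrast was used to draw up the list, nothing is read from that count. The same 2 genes and Itgav had groups that did not overlap, as had 12.6% of all genes. The median difference of the 9 genes was 0.28, beside -0.00488 over all genes.

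No member passed against control with AngII alone or L-NAME alone, nor did any of the 9118 genes (0%, limma). At an unadjusted p under 0.05 there were 2 members with AngII (Itgb6 and Itga6), beside 14.4% of all genes, and 2 with L-NAME (Itga5 and Itgav), beside 11.4%. The groups of Itga6 with AngII did not overlap, as for 11.4% of all genes, and no member was without overlap with L-NAME, against 10.1%. The medians of the 9 genes were 0.13 with AngII and 0.25 with L-NAME, beside 0.00556 and 0.0141 over all genes.

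Between the combination and AngII groups no member passed, with 0.735% of all genes called (0.428% higher and 0.307% lower) and 172 genes in place of 67 with the replicate number as a block. Between the combination and L-NAME groups none passed either, with 1.89% called (1.09% higher and 0.801% lower) and 262 genes in place of 172 with the block. At an unadjusted p under 0.05 these had 1 member (Itga7), beside 15.5% of all genes, and 2 members (Itgb6 and Itga7), beside 16.7%. No member was without overlap against AngII, where 7.72% of genes were, and Itgb6 alone was against L-NAME, where 10.3% were. For the interaction no member and no gene passed (0%, limma), while 2 members, Itgb5 and Itga7, had an unadjusted p under 0.05, beside 16.4% of all genes. All comparisons against control share the control arrays, and all with the combination share its arrays, so the values of a gene in them are not independent.

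**Figure D5:**
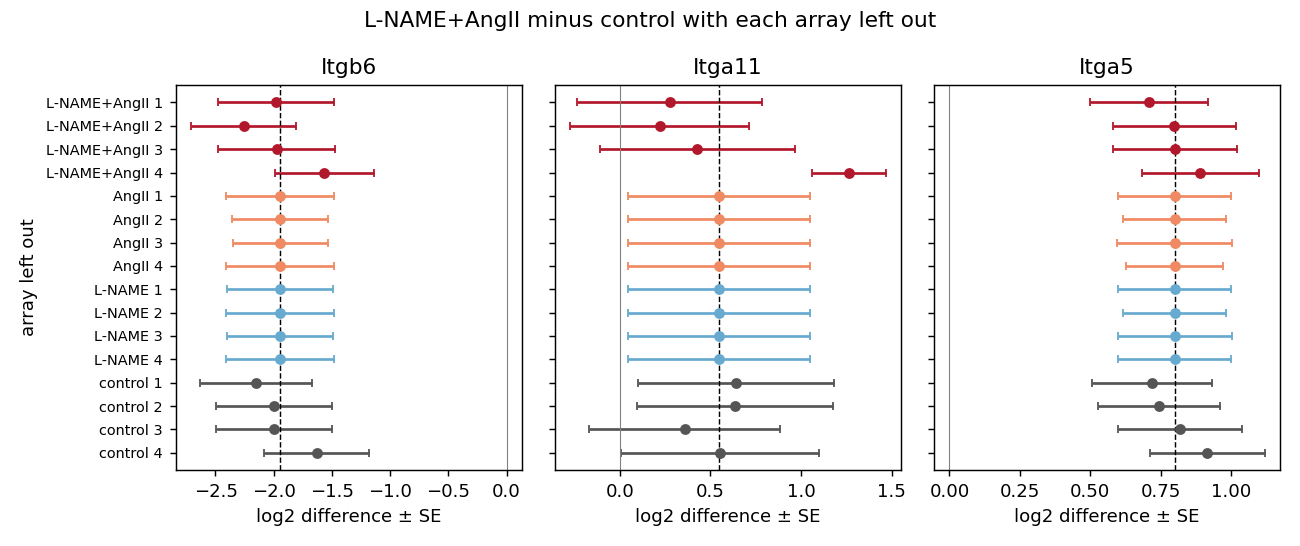
Difference in log2 intensity between the combination and control groups (horizontal axes, each with its own range, with the SE) for Itgb6, Itga11 and Itga5 when each of the 16 arrays is left out in turn (vertical axis). The dashed line is the value from all arrays. For Itga11 the point without combination array 4, at 1.26, lies apart from the others, which lie between 0.22 and 0.64.

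The gene lists below were drawn up with earlier results of these data known, so their p-values are a description only. Of 18 other integrin subunits listed, 16 had a probe and 6 were tested (Itga1, Itga3, Itgad, Itgae, Itgb2 and Itgb4). None passed between the combination and control groups by limma, with a median of 0.05, and 1 had an unadjusted p under 0.05, as had 21.4% of all genes. That gene, Itgb4, a laminin receptor subunit of epithelia, had means of 7.60 in the combination group and 8.35 in controls (difference -0.76, adjusted p = 0.183). It read 6.49 on combination array 4, and without that array the difference was -0.39 (adjusted p = 0.398, unadjusted p = 0.135).

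Of 39 genes of the integrin adhesion complex, the proteins that link integrin tails to actin, 24 were tested. Between the combination and control groups 2 were past the threshold, both higher, with a median of 0.12. Of all tested genes 5.79% were past it there (528 of 9118, or 248 to 580 with an array left out), 2.95% higher. They were Vcl, the actin linker vinculin, higher by 0.66 ± 0.16 log2 units (SE, limma adjusted p = 0.0265), and Zyx, the focal adhesion protein zyxin, higher by 0.60 ± 0.15 (adjusted p = 0.0351). Vcl was not particular to the combination: it differed from control by 0.68 with AngII alone (adjusted p = 0.0931) and 0.57 with L-NAME alone (adjusted p = 0.259). For Zyx these were 0.37 (adjusted p = 0.279) and 0.24 (adjusted p = 0.613). Without combination array 4 the 2 were joined by Actn1, an actin cross-linker (0.60, adjusted p = 0.0343). No gene of the list passed when control array 3, control array 4, combination array 1 or combination array 3 was left out, with the atrial covariate, or in the fit of only the groups compared. The count was 1 without control array 1 or without control array 2, and 4 with array weights.

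Of 35 genes of integrin matrix ligands, 24 were tested and 1 was higher past the threshold in the same comparison, with a median of 0.35. Beside 5.79% of all genes (528 of 9118, or 248 to 580 with an array left out), nothing is read from that count. The gene was Nid1, the basement membrane protein nidogen (0.84 ± 0.19, limma adjusted p = 0.0233). It differed from control by 0.62 with AngII alone (adjusted p = 0.165) and by 0.68 with L-NAME alone (adjusted p = 0.259). Without combination array 4 the count was 10, among them Col1a1 (2.04, adjusted p = 0.000358), Col4a1 (0.84, adjusted p = 0.00148) and the laminin chain Lamc1 (0.62, adjusted p = 0.00362). Over all alternatives the count ran from 0 to 11, and it was 0 in the fit of only the groups compared and when control array 1, control array 3, combination array 1 or combination array 3 was left out. Several of these ligands are among the fibroblast markers, whose mean was low on that array as given above.

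Of 18 genes of TGF-beta release and its receptors, 14 were tested and 2 were higher past the threshold in the same comparison, with a median of 0.20. Of all genes 5.79% were past it (528 of 9118, or 248 to 580 with an array left out). The receptor genes Tgfbr1 and Tgfbr2 were higher by 0.95 ± 0.11 (SE, limma adjusted p = 0.000222) and 0.66 ± 0.14 (adjusted p = 0.0148). As for the other lists, these p-values are a description. Tgfbr2 differed from control by 0.43 with AngII alone (adjusted p = 0.173) and by 0.39 with L-NAME alone (adjusted p = 0.306). Tgfbr1 was also higher in the combination than in the AngII group by 0.53 (adjusted p = 0.0321) and than in the L-NAME group by 0.79 (adjusted p = 0.00124). Without combination array 4 the count was 5, with Tgfb2, Tgfb3 and Ltbp3 added, and over all alternatives it ran from 1 to 5. None of 10 tested genes of the costamere and dystroglycan complex passed, nor any of 6 tested partners of melusin, by limma, and each list had 1 gene with an unadjusted p under 0.05, beside 21.4% of all genes.

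Some listed markers of other cell types differed in the same comparison, where 5.79% of all tested genes were called, 2.95% higher and 2.84% lower. Of 15 tested fibroblast markers 3 rose in the combination group over control, Mfap5 by 2.16, Mfap4 by 1.80 and Mmp2 by 1.27 log2 units (limma adjusted p = 0.000281, 0.0176 and 0.0106). The other 12 did not pass, and the median of the list was 0.45. Without combination array 4, Col1a1 (2.04), Col1a2 (1.12) and Col3a1 (0.94) of these 12 passed (adjusted p = 0.000358, 0.00365 and 0.00919). Of 9 atrial markers 4 rose and 1 fell, among them Dkk3 (2.79), Myl1 (0.73), Clu (0.46) and Stard10 (-1.27). The other 4 did not pass, and the median of the list was 0.72. Clu and Myl1 averaged 14.05 and 13.35 over all arrays of these left ventricles, so they are not particular to atrial tissue here. Of 9 macrophage markers Lgals3 rose (1.12) and 8 did not pass, with a median of 0.06. Of 5 mesothelial and epicardial markers Wt1 rose (0.62) and 4 did not pass, with a median of 0.14. Of 11 smooth muscle and pericyte markers Acta2 rose (0.88), Abcc9 fell (-0.64) and 9 did not pass, with a median of 0.30, and without combination array 4 Abcc9 missed the threshold (-0.53, adjusted p = 0.0624). Acta2 had means of 13.76, 13.64, 13.45 and 12.88 in the combination, AngII, L-NAME and control groups. Of 11 ventricular cardiomyocyte markers Tnni3 fell (-0.50) and 10 did not pass, with a median of 0.05. No endothelial, lymphocyte, glial, skeletal muscle or erythroid marker passed by limma, with 1, 0, 1, 1 and 0 genes at an unadjusted p under 0.05, again beside 21.4% of all genes. The part of these cell types in the integrin values was not tested.

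Likeness over the 16 arrays was ranked among the genes tested, passing over predicted and unnamed genes, Y-linked genes and Xist. The genes whose log2 intensities ran most like those of Itgb6 were Lsmem1 (Pearson's r = 0.97, Spearman's rho = 0.93), Igtp (r = 0.94), Ddit4l (r = 0.92), Gna11 (r = 0.91) and Timm21 (r = 0.91). Lsmem1 encodes a small membrane protein, Igtp a GTPase induced by interferon gamma, Ddit4l an inhibitor of mTOR signalling, Gna11 a G protein alpha subunit and Timm21 a subunit of the mitochondrial import machinery. The arrays share their normalisation, and the genes were picked as the highest of those ranked, so r is a description without a p. For Lsmem1 r was 0.94 without the 2 arrays farthest from the Itgb6 median, combination 4 and control 4, and 0.92 for deviations from the group means. Lsmem1 had means of 10.76, 11.10, 11.46 and 11.70 in the combination, AngII, L-NAME and control groups, the same order as Itgb6. The most opposite were Pttg1ip (r = -0.91), Csnk1d (r = -0.90) and Adarb1 (r = -0.90).

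Among the same ranked genes, those most like Itga11 were Fbln1, the matrix protein fibulin 1 and one of the fibroblast markers listed (r = 0.95, rho = 0.86), Prelp, a matrix proteoglycan (r = 0.92), Chrnb1, an acetylcholine receptor subunit (r = 0.91), the kinase Lrrk1 (r = 0.90) and Timp2, an inhibitor of matrix metalloproteinases (r = 0.89). Without combination arrays 4 and 2, which lay farthest from the Itga11 median, r was 0.87 for Fbln1 and 0.76 for Timp2. The most opposite, Smn1, Rfc4 and Seh1l, had r = -0.89, -0.89 and -0.88, and -0.66, -0.63 and -0.75 without those 2 arrays.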

How the data were processed

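Left ventricular RNA of 16 samples was measured on Illumina BeadChips. The submitters' processing notes name GenomeStudio and lumi, without versions in the sources used here. The authors deposited log2 intensities. Sorted columns differ by at most 0.00132, as quantile normalisation leaves them, and every array has a median of 6.90 and a range from 5.78 to 15.0. No source used here says whether variance was stabilised or background subtracted, either of which would move dim genes most. Another deposited file, with 64 columns of per-sample values, was left aside because no label matches its column names.

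By the platform annotation 23978 probes had a symbol and 1719 had none, and 23962 matched RefSeq by Entrez identifier. Background (7.13) was set from 1359 probes for chemosensory receptor genes, at their 95th percentile. The filter required a reading above it on at least 4 arrays (13018 probes passed), and each of 9118 genes was taken by its brightest probe. Where a whole group was below background, its readings were raised to that level and the fold given as at least N-fold. The test was a limma fit with 1 mean for each of 4 groups, using all 16 arrays, empirical Bayes moderation and Benjamini-Hochberg adjustment at 0.05, for 6 comparisons.

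Same-numbered samples of different groups deviated together (24 of 24 pairs, r from 0.115 to 0.452), as did other pairs within replicates 1 and 2 or within 3 and 4 (median 0.232), while pairs across these had a median of -0.258. This pairing comes from the data, not from the labels. No source used here gives slides or scan dates. No 2 arrays held identical values.

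The genes and lists were chosen with earlier results of these data known. Named were all members, of each list up to 4 genes with the smallest adjusted p past 0.05 between combination and control and up to 2 in each other comparison, and the 5 genes most like Itgb6 and Itga11 and the 3 most opposite. Alternatives were other filters, probes and background levels, a trended robust variance, array weights, blocks, fewer arrays, other normalisations, an atrial covariate and each array left out. The code was tested on simulated data. Figures were drawn in Python 3.11.15 with matplotlib 3.10.9 and pandas 2.3.3, and the fits ran in R 4.3.3 with limma 3.58.1.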

Additional observations from a re-analysis of the deposited data

Results flagged for a closer look

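On the second Itgb6 probe (ILMN_2805375), AngII array 3 read 6.26, far below the other 3 AngII arrays (8.26, 8.61 and 8.29). It was the only one of 60 groups of 4 readings, from 15 probes, in which 1 array stood apart by Dixon's criterion, which chance meets in about 5% of groups. On the brightest Itgb6 probe the same array was also the lowest of its group, at 7.17. The cause was not tested.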

How the results depend on the processing

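Over 29 alternatives the difference between the combination and control groups ran from -2.26 to -1.56 for Itgb6 and from 0.67 to 1.03 for Itga5. Itga11 ran from 0.22 to 1.26, highest without combination array 4. As a description only, since this comparison chose the genes, 2 members were past the threshold, 0 in the fit of only the groups compared, 1 with the atrial covariate and 1 to 3 with an array left out. Between the combination and L-NAME groups 1 member (Itgb6) was called with array weights, against 0, and 0 to 1 with an array left out, as against AngII. With an array left out 0 members were called in the other comparisons. No member reversed its direction past the threshold.

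Over all genes, the combination and control groups differed in 528, but in 1106 with array weights, 834 with 2 sets of arrays as a block, 82 with only the groups compared and 248 to 580 with an array left out. AngII against control had 0, but 7 without a filter, 19 with at least 8 arrays above background, 21 with background at the 99th percentile, 138 with a trended robust variance, 177 with array weights, 56 with the replicate block, 49 with 2 sets, 18 with cyclic loess, 17 with median centring, 13 with the atrial covariate and 0 to 137 with an array left out. L-NAME against control had 0, but 41 with array weights. The combination against AngII had 67, but 128 at the 99th percentile, 168 with the trended variance, 293 with array weights, 172 with the replicate block, 178 with 2 sets, 3 with only the groups compared, 3 with the atrial covariate and 20 to 119 with an array left out. Against L-NAME it had 172, but 280 with the trended variance, 478 with array weights, 51 with only the groups compared, 262 with the replicate block, 293 with 2 sets, 67 with the atrial covariate and 82 to 216 with an array left out. The interaction had 0, but 24 with at least 8 arrays, 60 at the 99th percentile, 8 with the mean of probes, 156 with the trended variance, 179 with array weights, 42 with the replicate block, 80 with 2 sets, 6 with median centring and 0 to 51 with an array left out. The replicate block changed no call of a member. The counts for pathway lists under each alternative were added after seeing the data. The causes were not tested. Signal over background limits Itgb6 in the combination group and the dimmer probes of Itgb6, Itga11 and Itga5.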

Other observations

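Itgbl1, a secreted protein with repeats like those of integrin beta subunits, is no integrin subunit and was chosen here after its values were seen. It read 11.65, 11.61, 11.58 and 10.70 on the combination arrays, 10.39, 10.37, 10.81 and 9.99 with AngII, 10.14, 9.73, 9.88 and 9.83 with L-NAME, and 9.84, 10.01, 9.89 and 9.78 in controls. The combination lay above every L-NAME and control array, by 1.51 log2 units over control (limma adjusted p = 0.000816) and 1.49 over L-NAME (adjusted p = 0.00132). It was 1.00 above AngII (adjusted p = 0.0345), with overlap on combination array 4, the array of its group with the lowest fibroblast marker mean. Since Itgbl1 was chosen for its values, these p-values are a description, and nothing is read from them. Of all tested genes 5.79% were called against control, 1.89% against L-NAME and 0.735% against AngII. Groups did not overlap for 12.6% of all genes against control and 10.3% against L-NAME.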
